A study of Rattus norvegicus with 8 samples.

Results

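The genes examined here are those that cut, carry and display peptides to T cells in the thyroarytenoid (TA) muscle of the rat larynx. Members were taken by name: every entry of the deposited gene table whose symbol begins with RT1-, the rat major histocompatibility complex (MHC), and 13 named genes of the same pathway. This gave 34 of 14016 entries, made up of 15 RT1 class I chains, 6 RT1 class II chains and the 13 named genes. RNA was sequenced from TA muscle of 8 male Long Evans rats at 8 months of age, 4 Pink1-/- and 4 wildtype (WT), and the Pink1-/- rats lack the mitochondrial kinase PINK1. The labels name no treatment. The value used is the average log2 CPM of each gene, its count scaled to the size of the library, which the authors computed once over the libraries of their comparison, with no replicate values. It gives a gene's level in TA muscle as a whole, and no difference between Pink1-/- and WT rats was measured or tested here. Neither a spread between rats nor a check of Pink1 in each library could be made, and the depth of each library is unknown.

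MHC class I molecules sit on nearly all nucleated cells and show peptides from inside the cell to CD8 T cells. Their heavy chain pairs with beta-2 microglobulin, and the peptides are cut by the proteasome, pumped into the endoplasmic reticulum and loaded there. MHC class II molecules are displayed mainly by dendritic cells, macrophages and B cells, and show peptides from engulfed material to CD4 T cells. Interferons raise both pathways. In resting skeletal muscle, fibers are known for low class I display and for lacking class II, so bulk muscle also carries MHC transcripts of the other cells in the tissue. In such bulk RNA, fewer cells of a type and less RNA per cell cannot be told apart.

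The promoters of these genes are shown first, because class I and class II genes are known to share an upstream module that NLRC5 and CIITA act through. In this module an X box is followed by a Y box, the inverted CCAAT letters that nuclear factor Y binds. Promoters came from RefSeq on the build GRCr8, from 250 bases before to 50 after each annotated gene start, and 29 of 34 members were matched by symbol. RT1-CE7, Erap1, RT1-DMb, Nlrc5 and Ciita were not matched. The stretches below hold a TGA, found at the end of many X boxes, followed after 14 to 24 bases by ATTGG. Both are in capitals (5′ to 3′ along the gene). These letters alone do not show that an X box is present. In RT1-A2 the TGA stands 14 bases before ATTGG, nearer than in RT1-CE5 and RT1-CE10, and it may lie outside an X box. At the distance where RT1-CE10 has its TGA, RT1-A2 reads cga, so the TGA marked in RT1-A2 is a different site. The first 4 stretches belong to class II chains, the next 4 to class I chains and the last to B2m, the class I light chain.
RT1-Ba (chr20:4576976-4577030, plus strand): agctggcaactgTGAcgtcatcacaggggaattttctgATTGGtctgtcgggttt
RT1-Bb (chr20:4604163-4604215, minus strand): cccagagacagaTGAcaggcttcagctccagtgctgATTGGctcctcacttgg
RT1-Db1 (chr20:4560226-4560281, minus strand): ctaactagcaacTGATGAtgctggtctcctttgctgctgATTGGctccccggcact
RT1-DOb (chr20:4627590-4627640, minus strand): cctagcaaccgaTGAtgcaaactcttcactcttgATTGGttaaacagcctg
RT1-A2 (chr20:4872762-4872807, plus strand): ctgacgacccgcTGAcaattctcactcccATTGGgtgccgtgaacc
RT1-CE5 (chr20:3484146-3484199, minus strand): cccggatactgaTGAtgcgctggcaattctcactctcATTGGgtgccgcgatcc
RT1-CE10 (chr20:3385063-3385116, minus strand): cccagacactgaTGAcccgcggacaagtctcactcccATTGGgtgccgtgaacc
RT1-M3-1 (chr20:1333372-1333425, minus strand): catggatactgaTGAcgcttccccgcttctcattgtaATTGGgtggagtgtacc
B2m (chr3:129549229-129549282, plus strand): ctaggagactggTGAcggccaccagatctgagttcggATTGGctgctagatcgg

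The pair was found in 4 of 14 class I promoters, RT1-A2 counted among them, and in 4 of 5 class II promoters. Of all 33469 RefSeq promoters, 7.95% hold it. The class II promoter without the pair, that of RT1-Da, holds the Y box, here in capitals, without a TGA at the spacing searched. Other forms of the X box were not searched, so this promoter may still hold one. The short stretch printed does not reach back over the spacing searched.
RT1-Da (chr20:4515354-4515382, plus strand): aacatttttctgATTGGctagaactcaag
CCAAT on either strand, whose inverted form is the Y box and part of the pair, was in 11 of 14 class I promoters and 5 of 5 class II promoters. It was in 37.5% of all promoters. In RT1-S3, RT1-CE4 and RT1-N2 it was found only forward along the gene, which is not the inverted Y box. By contrast, 2 of 8 promoters of the peptide loading and immunoproteasome genes held CCAAT and 0 of 8 held the pair. These matches are a description of letters on either strand and not a measure of binding, and the RefSeq genome is that of the BN strain while the rats here were Long Evans.

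Most promoters of peptide loading and immunoproteasome genes carried another set of letters. GAAANNGAAA, searched on both strands, is the core that interferon regulatory factors recognize, and it was in 6 of 8 of these promoters, in 2 of 14 class I promoters, in 0 of 5 class II promoters and in 3.92% of all promoters. These 6 were Psmb8, Psmb10, Psme2, Tap1, Tap2 and Tapbp, and the class I genes were RT1-N3 and RT1-S3. B2m held these letters as well as the pair of TGA and ATTGG, and these letters were in 9 of the 29 matched members in all. The letters, like those of the pair, were chosen after the promoters had been read, so the shares only describe these promoters. Other forms of the element were not searched, so a promoter without these letters may still hold one. The examples below have the matching letters in capitals, which in Tap1 lie on the opposite strand and in Tapbp overlap as a run of 2 matches.
Tap1 (chr20:4668643-4668676, minus strand): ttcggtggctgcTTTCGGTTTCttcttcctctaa
Tap2 (chr20:4652316-4652349, minus strand): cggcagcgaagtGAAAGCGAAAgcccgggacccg
Tapbp (chr20:4967878-4967915, minus strand): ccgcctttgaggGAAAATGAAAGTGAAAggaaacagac
Psmb10 (chr19:50743293-50743377, minus strand): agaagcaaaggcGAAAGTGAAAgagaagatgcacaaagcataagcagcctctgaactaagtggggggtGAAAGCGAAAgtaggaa
Psme2 (chr15:33052783-33052816, minus strand): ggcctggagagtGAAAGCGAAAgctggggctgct
Tap1 and Psmb9 are transcribed away from each other from starts with 456 bases between them, and their windows share 44 bases. The Tap1 match lies outside the Psmb9 window, and Psmb9 is counted among the promoters without these letters.

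**Figure D1:**
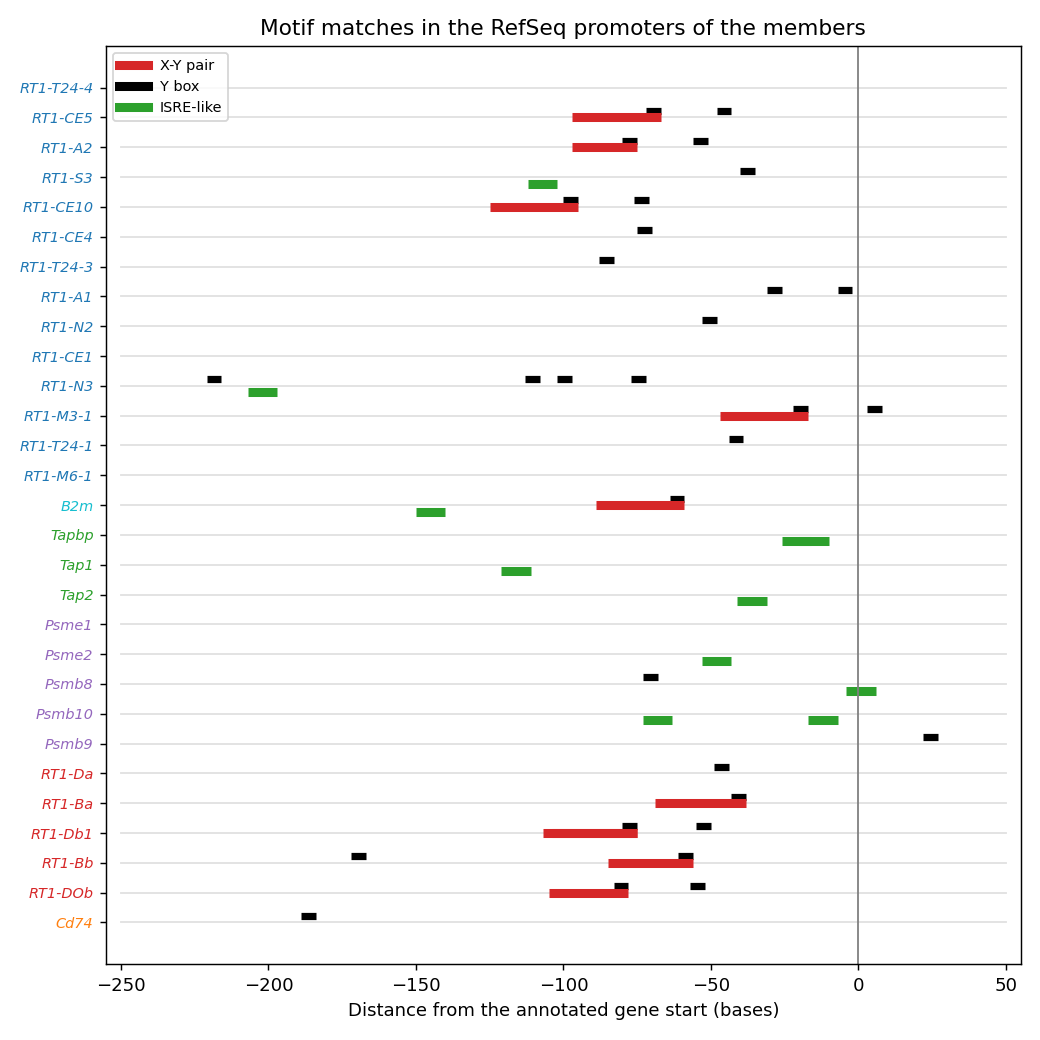
Motif matches (colored bars) along the RefSeq promoters of the 29 matched members, by distance in bases from the annotated gene start at 0. Bars named Y box mark CCAAT on either strand. Bars named X-Y pair mark a TGA followed after 14 to 24 bases by ATTGG, which does not show an X box. They lie in 4 of 5 class II promoters (red names) and 4 of 14 class I promoters (blue names). ISRE-like letters, which is GAAANNGAAA, lie in 6 of 8 promoters of the loading and immunoproteasome genes (green and purple names).

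The 15 class I chains had average log2 CPM values from 0.01 to 4.54, with a median of 3.25, and 8 of them lay at or above the median of all entries, 3.14. Together they took 170.2 CPM. CPM is not divided by transcript length, so these values give each gene's share of reads and do not rank transcripts of different genes. The 2 entries described as class Ia, the classical group that encodes the main peptide-presenting molecules, were RT1-A2 at 4.37 and RT1-A1 at 2.59 in average log2 CPM. RT1-A3, which RefSeq also lists, was not analysed here under that symbol.

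The class I entries of the CE loci had average log2 CPM values of 4.48 for RT1-CE7, 4.43 for RT1-CE5, 3.89 for RT1-CE10, 3.70 for RT1-CE4 and 2.42 for RT1-CE1. The table describes 4 entries as class Ib, a group of less variable class I genes. Of these, RT1-S3, which RefSeq equates with the mouse gene H2-T23 for the molecule Qa-1, was at 4.15 in average log2 CPM, or 17.8 CPM. RT1-M3-1, the counterpart of a mouse molecule that presents formylated peptides of bacteria, was at 2.84 CPM, and RT1-N2 and RT1-N3 were at 2.46 and 2.21 in average log2 CPM. RT1-S3 thus lay between the median of all entries, 3.14, and their upper quartile, 4.49, and the other entries described as class Ib lay below the median.

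The T24 entries were spread widely, with RT1-T24-4 at 4.54, RT1-T24-3 at 3.25 and RT1-T24-1 at 1.05 in average log2 CPM. RT1-M6-1 stood lowest of the class I entries at 0.01, and 4.04% of all entries had a lower value. Class I genes resemble each other closely, and reads that fit several of them may have been divided between entries by the counting, so every value of a single class I entry is uncertain. In RefSeq, 7 of the 15 also overlap the span of another RT1 gene, namely RT1-T24-4, RT1-T24-3, RT1-CE7, RT1-CE5, RT1-CE10, RT1-CE4 and RT1-N2. Over the other 8 entries the median was 2.31 in log2 CPM, below the 3.25 over all 15.

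B2m, the light chain that all class I heavy chains of this kind need, had 234 CPM (average log2 CPM 7.87). It had more reads than any other member, and 98.6% of all entries had a lower value. On its own it took 35.3% of the 663 CPM of all 34 members.

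Peptide transport and loading genes ranged from 2.74 to 5.10 in average log2 CPM. Tap1 and Tap2, which form the pump that moves peptides into the endoplasmic reticulum, stood side by side at 2.78 and 2.74, or 6.87 and 6.70 CPM. Tapbp, which encodes tapasin, the bridge between the pump and empty class I molecules, was at 3.80, and Erap1, an aminopeptidase that trims peptides to length, was at 5.10 in average log2 CPM. All 5 general loading genes listed beside them had an entry. These were the chaperones Calr at 7.16 and Canx at 7.21, the disulfide isomerase Pdia3 at 5.84, the tapasin-related Tapbpl at 2.45 and the aminopeptidase Lnpep at 5.61 in average log2 CPM.

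Immunoproteasome genes encode subunits that interferon gamma induces and that replace the standard catalytic subunits of the proteasome. Psmb8, Psmb9 and Psmb10 were at 2.69, 1.85 and 2.32 in average log2 CPM, all below the median of all entries. Psmb5, Psmb6 and Psmb7, which they replace in that order, were at 4.77, 5.39 and 6.17. These are read shares of transcripts of unknown length, given side by side. The 16 listed subunits and activators of the constitutive proteasome ranged from 3.97 to 7.32, all above the median of all entries. Psme1 and Psme2, the alpha and beta chains of the activator PA28 that opens the proteasome core, were at 4.98 and 3.83 in average log2 CPM. Psme3, their nuclear relative, was at 4.37.

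The 6 class II chains ranged from -0.30 to 4.63 in average log2 CPM, with a median of 3.06, and 3 of them lay at or above the median of all entries. Together they took 59.0 CPM. RT1-Da and RT1-Db1, the alpha and beta chains of the molecule that corresponds to human HLA-DR, were at 4.63 and 3.16. RT1-Ba and RT1-Bb, the pair that corresponds to human HLA-DQ, were at 3.82 and 2.96 in average log2 CPM. In both pairs the alpha chain took more reads than its beta chain, with 24.7 and 8.95 CPM for RT1-Da and RT1-Db1 and 14.1 and 7.80 CPM for RT1-Ba and RT1-Bb.

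The class II members that edit peptide loading had few reads. RT1-DMb, the beta chain of the DM exchange factor, was at 1.39 in average log2 CPM. Outside the rule, LOC108348072 and LOC108348139, described as class II M alpha and M beta 1 chains, were at 1.98 and 1.13. RT1-DOb, the beta chain of DO, which restrains DM, was at -0.30, and at 0.811 CPM it was the only member under 1 CPM. Cd74, the invariant chain that fills the groove of new class II molecules and guides them to endosomes, had 68.8 CPM (average log2 CPM 6.10), and 93.1% of all entries had a lower value. The listed genes of class II peptide supply all had an entry, with the cathepsins Ctsb at 7.82, Ctsl at 6.33 and Ctss at 2.82, the legumain gene Lgmn at 4.81 and the thiol reductase gene Ifi30 at 2.96 in average log2 CPM.

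Class I and class II chains could be compared only as averages over the rats. Their medians were 3.25 and 3.06 in log2 CPM, and their ranges overlapped over most of their length. The order of the medians depended on the entries kept. Without the 7 class I entries that overlap another RT1 gene, the class I median was 2.31, below the 3.06 of class II. With the 2 class II M chain entries outside the rule, the class II median was 2.47. The summed read share was 170.2 CPM over 15 class I entries and 59.0 CPM over 6 class II entries. The most abundant class I entry held 13.6% of its class sum and the most abundant class II entry, RT1-Da, held 41.9%. No test was possible on 1 value per gene, and genes are not replicates.

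**Figure D2:**
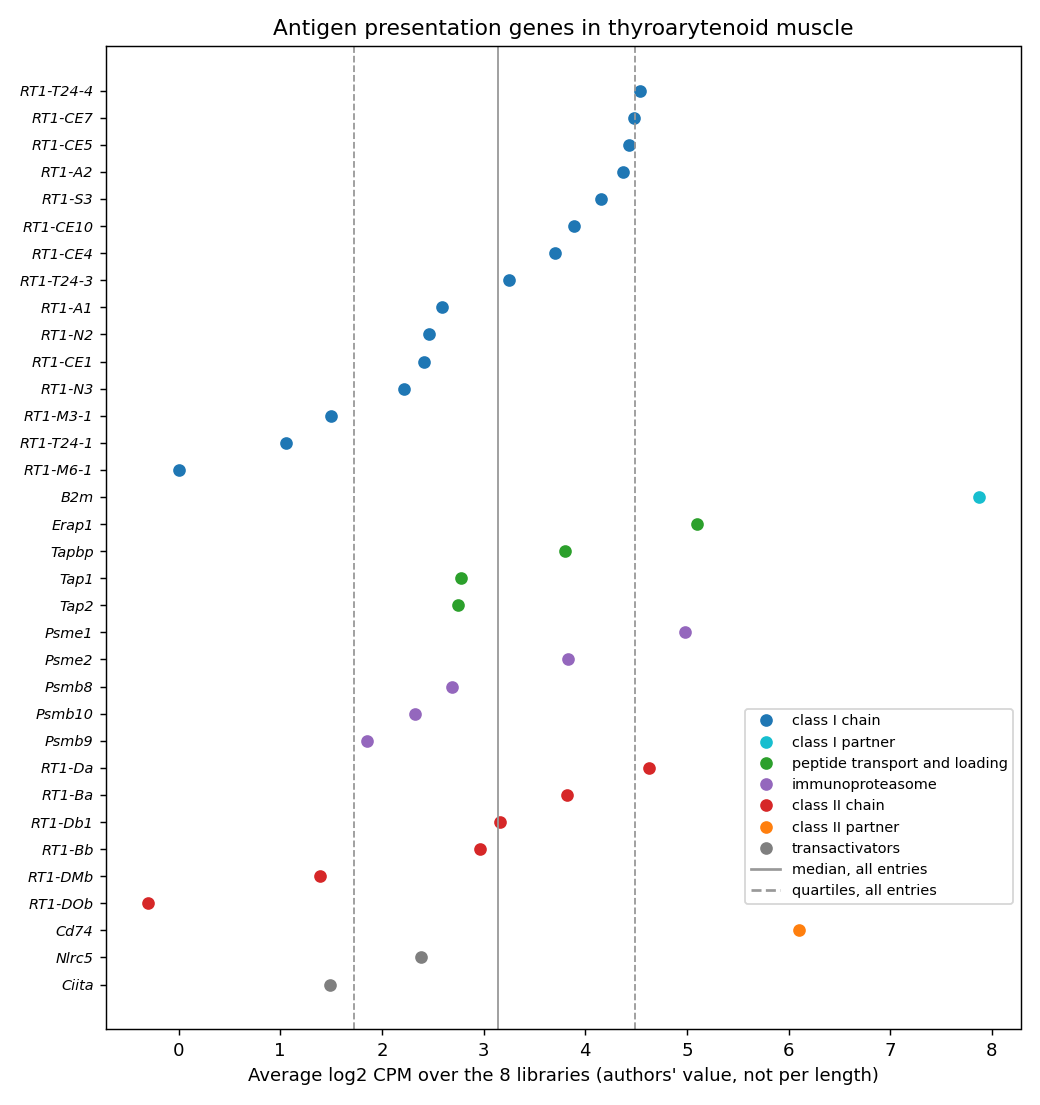
Average log2 CPM of each of the 34 members (points, colored by role), as the authors averaged it over the libraries, with the median (solid line) and quartiles (dashed lines) of all 14016 entries. B2m at 7.87 and Cd74 at 6.10 stand to the right, and RT1-M6-1 at 0.01 and RT1-DOb at -0.30 to the left.

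Transactivators were at low read shares. Nlrc5, the coactivator of class I genes, was at 2.39, and Ciita, the master coactivator of class II genes, was at 1.49 in average log2 CPM. Of 10 DNA-binding partners and interferon-linked regulators described here, 9 had an entry, from 2.32 for Rfxank to 5.25 for Nfyc. Rfx5, which binds the X box together with Rfxank, was at 3.79, and the nuclear factor Y genes Nfya, Nfyb and Nfyc were at 2.82, 3.51 and 5.25. Irf1, which is induced by interferon gamma, was at 3.57, and the myeloid factor Irf8 was at 2.54 in average log2 CPM.

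Of 7 listed skeletal muscle markers, 5 had an entry, with Myh4, a fast myosin, at 14.75, Ckm at 12.15 and Acta1 at 11.26 in average log2 CPM. Of cells that carry class II molecules, macrophages had an entry for 6 of 6 listed markers, from 2.43 for Cd68 to 5.46 for Csf1r. Dendritic cells had one for 3 of 4, and none was above 1.70, the value of Clec9a. No entry under the symbols of the 4 B cell markers was analysed here. T cell markers had an entry for 2 of 5, and of these Cd4, which rat macrophages also express, was at 4.07 and Lck at -0.39. Endothelium had an entry for 2 of 3 markers, Cdh5 at 6.02 and Kdr at 5.41. Squamous epithelium had entries for 5 of 5 markers, with Krt4 at 8.18 and Krt13 at 8.01 in average log2 CPM. No entry under the symbols Pecam1, Myh1 and Myh2 was analysed here either, so a missing entry does not show that a cell type was absent. The part of each cell type in the MHC values was not tested.

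**Figure D3:**
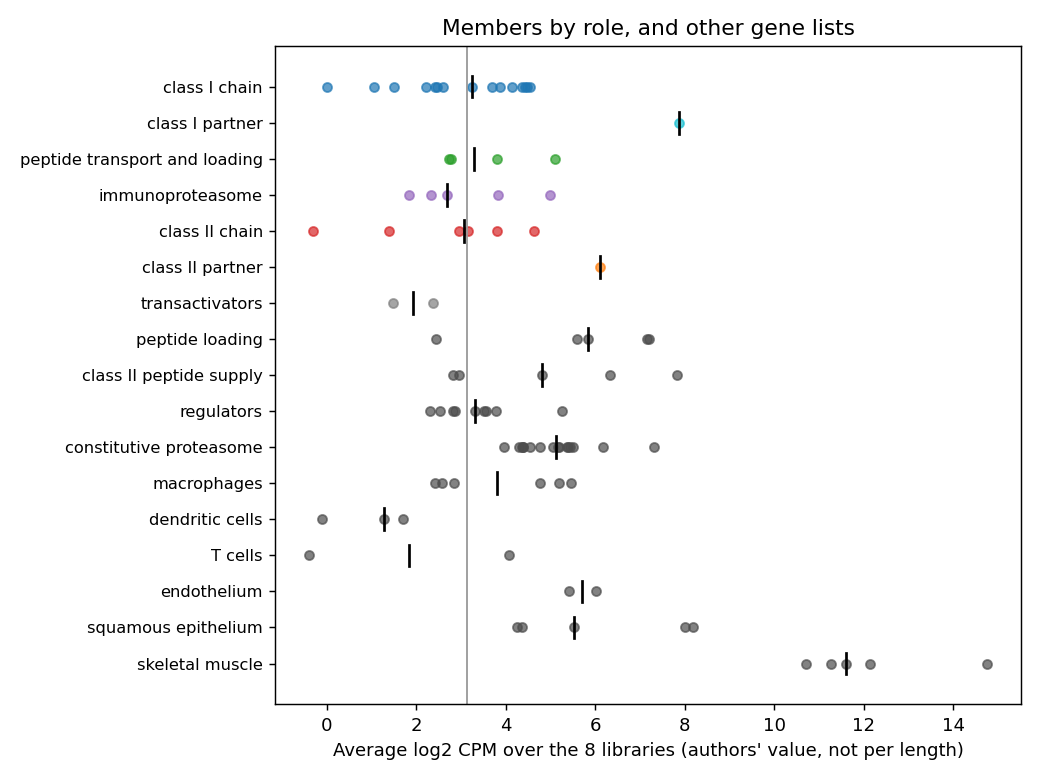
Average log2 CPM of the members by role (colored points) and of the other listed genes (gray points), 1 point per gene, with black ticks at list medians and a gray line at the median of all entries. Skeletal muscle genes lie from 10.71 to 14.75, to the right of every member, and the 16 constitutive proteasome genes lie from 3.97 to 7.32.

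By position, 26 of the 34 members lie on chromosome 20, where RefSeq places the rat MHC, among them Tap1, Tap2, Tapbp, Psmb8 and Psmb9. Most of these are RT1 genes, chosen by name as MHC genes, so the rule largely fixed this count. The other 8 members lie elsewhere, such as B2m on chromosome 3, Cd74 on chromosome 18 and Psme1 and Psme2 on chromosome 15. RefSeq lists 44 protein-coding RT1 genes, of which 21 had an entry under the same symbol. Of the other 23, 19 are class I and 4 are class II, including RT1-DMa and RT1-DOa, and they were not analysed here under these symbols.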

How the data were processed

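RNA of thyroarytenoid muscle from 4 Pink1-/- and 4 WT rats, grouped by their genotype labels, was sequenced from TruSeq libraries. Per the submitters' processing notes, the authors used RSEM and edgeR 3.9. Which genome build, annotation, filters and normalization factors were applied is not stated by those notes or the labels. As a file, the authors deposited 1 table for the whole series with, for each gene, an average log2 CPM over the libraries, which was used here. It also holds the log2 fold change, likelihood ratio, p-value and adjusted p-value of the authors' own comparison, which were not used. The table has 0 columns of values per rat, so the planned tests between genotypes were not run and the depth and precision per sample are unknown. CPM values are 2 to the power of the deposited log2 values, and no filter was applied.

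RT1 entries were classed by the table's descriptions. Every member and the genes of lists set out for loading, peptide supply, regulators, proteasome and cell types could be named. The text gives only part of the listed genes, and 1 of them is left out of the results and not reported here. The members and lists were chosen with earlier results of these data known, and the motifs after the promoters had been read. Each of the 34 members stands on 1 row. Gene names, overlaps and promoters come from RefSeq (GRCr8). The scripts ran under Python 3.11.15 with matplotlib 3.10.9, numpy 2.4.6 and pandas 2.3.3.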

Additional observations from a re-analysis of the deposited data

How the results depend on the processing

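The median level over class I chains was 3.25 in log2 CPM. It moved to 2.31 without the entries that overlap another RT1 gene in RefSeq, which leaves 8 entries. All of those left out except RT1-N2 were at or above 3.25. The median over class II chains was 3.06 and moved to 2.47 with the 2 entries outside the rule, LOC108348072 and LOC108348139, that the table describes as class II M chains, which adds low values. Summing CPM over entries, another quantity by construction, gave 7.41 for class I and 5.88 for class II in log2 CPM, and 7.20 and 5.10 without the entry with the most reads. A minimum of 1 CPM, 1 entry per symbol and, for class I, the 2 entries outside the rule moved no value by over 1.5 times. Of these, 1 entry per symbol left the same 34 members, and no class I entry was under 1 CPM, so neither setting could change those values. With a spacing of 16 to 22 bases, 7 promoters in place of 9 held the pair, against 5.19% in place of 7.95% of all promoters. With only the bases before the start, 9 held it, against 7.0% of all promoters, and 8 in place of 9 held GAAANNGAAA, against 3.41% in place of 3.92%. The overlap, the outside entries, the top entry, the spacing and the window were chosen after seeing the data. Levels per kilobase of coding sequence, the difference of immunoproteasome subunits from their counterparts on that scale, protein identity between RT1 members, the test between genotypes, and leaving out each rat were not run, because lengths, proteins and values per rat were not analysed here. No paired analysis was possible because the value used is 1 average per gene. What depth limits cannot be stated, since the total count of each library is unknown.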
